A study of Mus musculus with 6 samples.

Results

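The genes described here are 10 markers of the mesothelium that covers the heart, the epicardium. They were measured by RNA sequencing in atrial tissue of obese and lean mice. The 10 genes were chosen by name from the deposited table of 43432 genes, and each name matched 1 row. They are Upk1b, Upk3b, Msln, Wt1, Krt8, Krt18, Krt19, Lrrn4, Bnc1 and Aldh1a2. All 10 reached the minimum for testing, a mean of 10 normalized counts over the samples. A normalized count is the number of reads on a gene divided by 1 scaling factor per sample.

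Wild-type C57/Bl6J mice received either a high-fat diet (HFD), here called obese, or a control chow, here called lean. Feeding began at 6 weeks of age and lasted 10 weeks, after which RNA was taken from right and left atrial tissue together. There were 3 samples per diet, and the sources used here do not say whether a sample is a single animal. The p-values set the diet difference against the spread between these samples, which need not be the spread between animals. Diets were taken from the sample titles and the names of the table's columns. A separate treatment entry contradicts the title of each of the 6 samples, and if that entry were right every direction given here would turn.

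The epicardium is a single layer of mesothelial cells on the outer surface of the heart, continuous with the lining of the pericardial sac. Such cells are unusual in that they hold the keratins of simple epithelia although they arise from mesoderm. During development some of them leave the surface and give rise to fibroblasts and mural cells of vessels, and they supply retinoic acid to the growing heart wall. In adult tissue the layer is thin, so its RNA is a small share of a whole atrium. In bulk RNA, fewer cells of a type and less RNA per cell cannot be told apart, and epicardium cannot be told apart from the mesothelium of pericardium or attached fat.

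The reads on genes amounted to 15874251 to 28971508 per sample. Lean sample 2 was the deepest and carried 30.7% mitochondrial reads, where the others carried 19.5% to 24.4%. It also had the highest summed level of 4 ventricular myocyte genes, 17399 normalized counts against 6882 to 9866 elsewhere. Of the 10 mesothelial genes, the fewest reads in any sample were 26, for Bnc1 in obese sample 1 (exact 95% Poisson interval 17.0 to 38.1, counting error only). The most were 1326, for Upk3b in lean sample 2. Together the 10 genes took 1649 to 3495 reads per sample.

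Promoter sequences were found for 6 of the 10 genes among RefSeq windows of 300 bases around the annotated start (GRCm38.p6). Upk1b, Msln, Wt1 and Krt19 had no entry. The windows of Upk3b and Lrrn4, a pair of surface proteins of mesothelium, are shown with those of Krt8 and Krt18, the keratin partners whose ratio varied between samples. The values of none of these genes separated by diet. Each is written 5′ to 3′ on the strand of its gene. Capitals mark the letters GGAATG or CATTCC (the motif of TEAD factors on either strand) and TATAAA or TTTATA (the TATA box on either strand).
Upk3b, chr5:136038246-136038545, plus strand: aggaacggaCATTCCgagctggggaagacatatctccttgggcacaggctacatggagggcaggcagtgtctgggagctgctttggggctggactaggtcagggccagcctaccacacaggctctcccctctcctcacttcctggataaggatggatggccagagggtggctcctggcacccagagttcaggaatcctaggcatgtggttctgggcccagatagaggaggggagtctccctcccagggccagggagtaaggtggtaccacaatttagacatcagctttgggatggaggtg
Lrrn4, chr2:132880813-132881112, minus strand: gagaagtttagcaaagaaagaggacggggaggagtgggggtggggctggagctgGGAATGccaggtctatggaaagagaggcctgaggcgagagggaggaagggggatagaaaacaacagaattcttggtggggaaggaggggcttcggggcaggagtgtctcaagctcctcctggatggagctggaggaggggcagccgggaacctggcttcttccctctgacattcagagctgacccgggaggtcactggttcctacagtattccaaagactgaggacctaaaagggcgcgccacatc
Krt8, chr15:102004293-102004592, minus strand: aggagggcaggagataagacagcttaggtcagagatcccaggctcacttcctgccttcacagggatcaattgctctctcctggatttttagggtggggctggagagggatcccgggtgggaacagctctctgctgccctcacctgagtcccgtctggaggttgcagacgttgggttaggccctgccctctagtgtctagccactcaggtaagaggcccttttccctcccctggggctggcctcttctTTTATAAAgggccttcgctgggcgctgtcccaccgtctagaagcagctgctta
Krt18, chr15:102027966-102028265, plus strand: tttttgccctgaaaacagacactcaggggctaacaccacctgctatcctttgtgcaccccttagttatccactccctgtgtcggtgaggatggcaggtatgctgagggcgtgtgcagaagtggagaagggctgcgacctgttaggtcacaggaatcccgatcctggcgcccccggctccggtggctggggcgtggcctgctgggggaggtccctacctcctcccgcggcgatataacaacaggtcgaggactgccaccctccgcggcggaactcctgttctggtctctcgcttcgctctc

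The TEAD letters were in the windows of Upk3b and Lrrn4, 2 of the 6, and in 14.7% of all 32851 windows. The TATA letters were in 1 of the 6, that of Krt8, where the 2 matches overlap on opposite strands, and in 13.6% of all windows. The GC box letters GGGCGG, searched on both strands, were in the window of Bnc1 with 6 matches and in 35.7% of all windows. The WT1 letters GCGTGGGAG, also searched on both strands, were in none of the 6 and in 0.472% of all windows. None of these matches is a measured binding site. Krt8 and Krt18 lie on opposite strands of chromosome 15 with 23873 bases between their ends, and the 10 genes are spread over 8 chromosomes.

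None of the 10 genes differed between obese and lean atria after adjustment over all 15275 genes tested with limma (Benjamini-Hochberg), where 0.746% of genes passed at an adjusted p under 0.05. Their adjusted p ranged from 0.406 to 0.995. With edgeR and with DESeq2 on the recovered reads the count was also 0. At an unadjusted p under 0.05 limma gave 1 of the 10, Krt19, while 12.2% of all genes passed, and edgeR and DESeq2 gave 0. For every one of the 10 genes the values of the 2 diets overlapped, beside 18.0% of all genes tested that did not overlap. With only 10 genes that count says little about them as a set. The median log2 fold change over the 10 genes was 0.06, beside 0.00 over all genes tested, with 6 above 0 and 4 below.

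**Figure D1:**
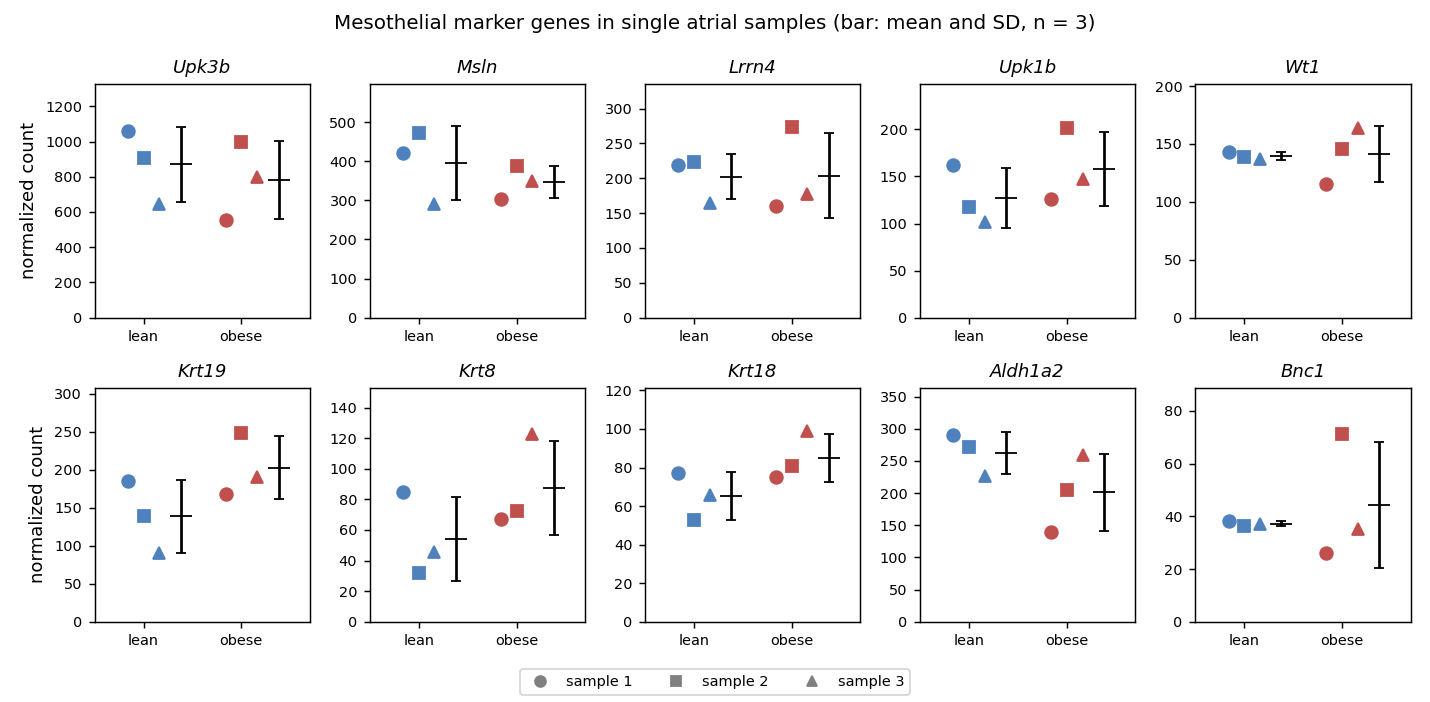
Normalized counts (y axis, from 0) of the 10 mesothelial genes in each of 3 lean and 3 obese atrial samples. Points are samples, with the shape giving the sample number, and the bar beside them is the mean and SD. In every panel the lean and obese points overlap, and obese sample 1 is the lowest obese point.

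The surface proteins of mesothelium come first, each gene with its Ensembl identifier and its position in GRCm38. Upk3b (ENSMUSG00000042985, chr5:136038496-136045303) encodes uroplakin 3B, a membrane glycoprotein of the uroplakin family that is best known from bladder and is also made by mesothelium. It had 556, 996 and 796 normalized counts in obese samples 1, 2 and 3, and 1060.3, 907 and 643 in lean samples 1, 2 and 3. The range of both diets was thus wide, and the lowest value of all belonged to an obese and the highest to a lean sample. The log2 fold change was -0.16 (95% interval -0.67 to 0.34, adjusted p = 0.833 from limma), and its two-sided exact permutation p was 0.6, where 3 samples against 3 cannot give less than 0.1.

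Msln (ENSMUSG00000063011, chr17:25748614-25754327) encodes mesothelin, a cell surface protein anchored by a lipid tail, which is made by mesothelium and binds the mucin encoded by Muc16. Its normalized counts were 304, 389 and 349 in obese and 421, 474 and 291 in lean samples. The lean samples enclosed the obese ones, with a log2 fold change of -0.16 (95% interval -0.59 to 0.26, adjusted p = 0.792 from limma). Muc16 itself, chosen after its values were seen, had 32.1, 35.7 and 42.0 normalized counts in obese and 44.8, 74.6 and 30.6 in lean samples, and its log2 fold change in limma was -0.35, with an adjusted p of 0.754.

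Upk1b (ENSMUSG00000049436, chr16:38773184-38800203) encodes uroplakin 1B, a tetraspanin. It had 126, 202 and 148 normalized counts in obese and 162, 117 and 102 in lean samples. The means were 158 ± 39.3 and 127 ± 31.6 (SD, n = 3 each), with a log2 fold change of 0.32 (95% interval -0.22 to 0.85, adjusted p = 0.653 from limma). The other uroplakins of the bladder plaque were at or near 0. Upk2 had no read in any sample and Upk3a had at most 1.14 normalized counts, while Upk1a reached 23.3 in lean sample 2.

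Lrrn4 (ENSMUSG00000043110, chr2:132868305-132880891) encodes a membrane protein with leucine-rich repeats that marks mesothelium. It had 160, 273 and 177 normalized counts in obese and 218, 223 and 165 in lean samples. The group means were nearly equal, 203 ± 61.2 and 202 ± 32.2 (SD, n = 3 each), and the log2 fold change was -0.02 (95% interval -0.52 to 0.48, adjusted p = 0.987 from limma).

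The 2 transcription regulators were the steadiest genes among lean samples. Wt1 (ENSMUSG00000016458, chr2:105126529-105173616) encodes a zinc finger factor needed for the formation of the epicardium and for the change of its cells into mesenchyme. Its normalized counts were 116, 146 and 164 in obese and 143, 139 and 137 in lean samples. The lean values lay within a factor of 1.05 of each other and inside the obese range. They came from 128, 203 and 125 reads. Counting error was not set against that span, which therefore does not show that Wt1 is steady. The log2 fold change was 0.01 (95% interval -0.41 to 0.42, adjusted p = 0.995 from limma).

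Bnc1 (ENSMUSG00000025105, chr7:81966672-81992299) encodes basonuclin 1, a zinc finger protein of epithelia and mesothelium. It had 26.1, 71.4 and 35.2 normalized counts in obese and 38.1, 36.3 and 37.2 in lean samples. The obese samples spanned 2.73-fold and the lean ones 1.05-fold, and obese sample 2 had the highest value, from 70 reads. The lean values came from 34, 53 and 34 reads. Their exact 95% Poisson intervals were 23.5 to 47.5, 39.7 to 69.3 and 23.5 to 47.5 reads. Counting error is thus wider than the lean span, which does not show that Bnc1 is steady. The log2 fold change was 0.12 (95% interval -0.74 to 0.97, adjusted p = 0.939 from limma), the widest interval of the 10 genes.

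The keratins had the largest positive differences of the 10 genes, and the diets overlapped for each of them. Keratins form filaments as pairs of a type I and a type II chain, and in simple epithelia the usual pair is the type II chain of Krt8 with the type I chain of Krt18 or Krt19. Krt19 (ENSMUSG00000020911, chr11:100140810-100148665) had 169, 249 and 191 normalized counts in obese and 186, 140 and 90.7 in lean samples. The highest lean sample stood above the lowest obese one. The means were 203 ± 41.4 and 139 ± 47.6 (SD, n = 3 each), which differ by 0.59 as a limma log2 fold change (95% interval 0.00 to 1.17, standard error 0.26). Its unadjusted p in limma was 0.0493 and its adjusted p 0.406, and its two-sided exact permutation p was 0.2.

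Krt8 (ENSMUSG00000049382, chr15:101996711-102004342) had 67.3, 72.4 and 123 normalized counts in obese and 85.1, 32.2 and 45.9 in lean samples. Its log2 fold change was the highest of the 10 genes at 0.74, with a 95% interval of -0.09 to 1.57 (adjusted p = 0.473 from limma). It also varied most within diets, with an SD of 0.59 on the log2 scale. One named pseudogene of Krt8 is annotated, and 101 of its exon bases overlap a gene on the opposite strand. Reads shared with either were not measured.

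Krt18 (ENSMUSG00000023043, chr15:102028216-102032026) had 75.3, 80.6 and 98.8 normalized counts in obese and 77.3, 52.7 and 65.6 in lean samples, where only lean sample 1 reached into the obese range. The log2 fold change was 0.38 (95% interval -0.16 to 0.92, adjusted p = 0.581 from limma). The ratio of Krt8 to Krt18 was 0.893, 0.899 and 1.24 in obese and 1.101, 0.610 and 0.700 in lean samples, and overlapped between the diets. Basal keratins were scarce, with no read for Krt5 in any sample and 12.3 to 24.1 normalized counts for Krt14. Krt7, a keratin of the wider mesothelial list chosen after its values were seen, did not share the difference. It had 71.3, 155 and 176 normalized counts in obese and 152, 110 and 95.1 in lean samples. Its limma log2 fold change was 0.10 (adjusted p = 0.945), and its lowest value was in obese sample 1. Krt7 is not one of the 10 genes and did not enter the keratin comparisons below.

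Aldh1a2 (ENSMUSG00000013584, chr9:71215789-71296243) encodes the enzyme that makes retinoic acid from retinal and marks the epicardium from early development. It had 140, 205 and 259 normalized counts in obese and 290, 271 and 226 in lean samples. Lean sample 3 lay below obese sample 3, so the diets overlapped. The means were 201 ± 59.8 and 262 ± 32.7 (SD, n = 3 each), with a log2 fold change of -0.42, the lowest of the 10 genes (95% interval -0.91 to 0.08, adjusted p = 0.501 from limma).

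**Figure D2:**
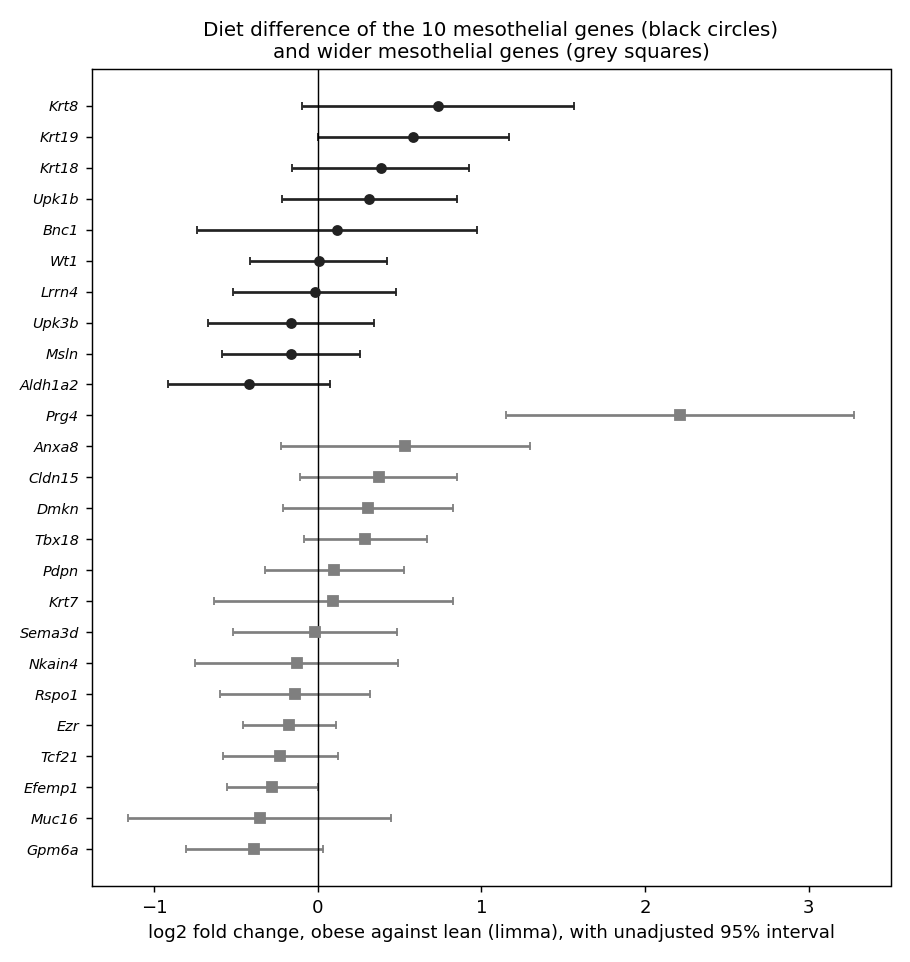
Log2 fold change of obese against lean atria (x axis) with unadjusted 95% intervals from limma, for the 10 mesothelial genes (black circles) and 15 wider mesothelial and epicardial genes (grey squares). The intervals of 9 of the 10 hold 0, and Prg4 stands farthest from 0 among the wider genes at 2.21.

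Per length, the levels ran from 234 normalized counts per kilobase of exon for Upk3b, as the mean of 6 samples, to 8.76 for Bnc1. The order below Upk3b was Msln (121), Aldh1a2 (102), Krt19 (92.1), Upk1b (68.3), Lrrn4 (54.6), Krt18 (52.2), Krt8 (36.2) and Wt1 (22.7), each in normalized counts per kilobase. Upk3b was above Msln and Wt1 above Bnc1 in 6 of 6 samples with ranges that did not overlap. Krt19 was above Upk1b and Krt18 above Krt8 per kilobase in 6 of 6 samples, although their ranges overlapped. Lrrn4 was above Krt18 in 3 of 6 samples, and Msln above Aldh1a2 and Aldh1a2 above Krt19 in 4 of 6 each, so these neighbours did not separate.

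Among samples of 1 diet the 10 genes varied more than most genes. Their median SD within diets was 0.34 on the log2 scale, against 0.22 over all genes tested, and 9 of the 10 were above that value, with Wt1 the exception at 0.18. The comparison was not matched for level, and counting error is larger for genes with few reads. In obese sample 1 all 10 genes had their lowest value of the 3 obese samples, whereas 30.8% of all genes tested did. Relative to their means over the 6 samples, the 3 keratins of the 10 were there at 0.03 to 0.05 and the other 7 genes at -0.69 to -0.15 on the log2 scale. Obese sample 2 held the highest obese value for 6 of the 10, and obese sample 3 for the other 4. Among lean samples, sample 1 held the highest value for 8 of the 10, against 34.2% of all genes, and sample 3 the lowest for 7 of the 10, against 35.8%.

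The summed level of the 10 genes was 1738, 2684 and 2340 normalized counts in obese and 2682, 2392 and 1802 in lean samples. The lowest and the highest sum thus both belonged to obese samples. The mean log2 value of the 10 genes, taken from the mean of the 6 samples, was -0.26, 0.31 and 0.17 in obese and 0.20, -0.11 and -0.30 in lean samples.

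**Figure D3:**
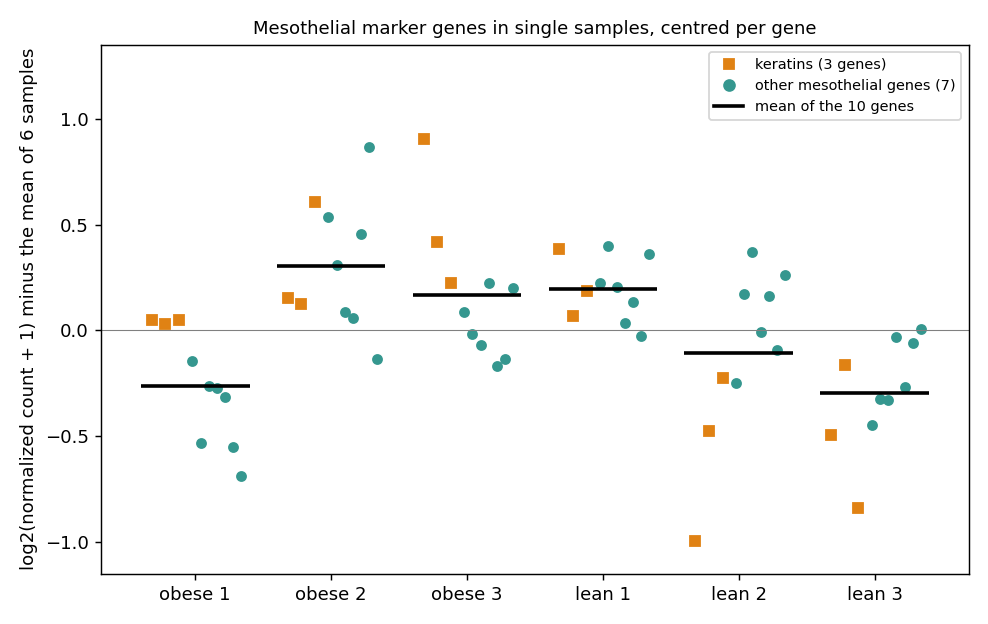
Log2(normalized count + 1) of each mesothelial gene minus its mean over the 6 samples (y axis), for each sample (x axis). Orange squares are the 3 keratins, green circles the other 7 genes and black lines the mean of the 10, which runs from -0.30 in lean sample 3 to 0.31 in obese sample 2.

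Ratios between the genes do not depend on the scaling of a sample. Of the 45 pairs among the 10 genes, the ratio did not overlap between the diets for 12 pairs (26.7%), beside 18.1% of all pairs of genes tested. The 45 pairs share 10 genes and are not independent, and no test was made. Krt19 was in 5 of the 12 pairs, each time relatively higher in obese atria, and Aldh1a2 in 5, each time relatively lower. Of the 21 pairs of a keratin with another gene, 8 did not overlap, and of the 21 pairs without a keratin, 4 did not. None of the 3 pairs of keratins did so.

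The ratio of Upk3b to Krt19 was 3.29, 4.004 and 4.17 in obese and 5.70, 6.50 and 7.08 in lean samples. The log2 ratio differed by -0.75 between the diets, beside an SD within diets of 0.17. The ratio of Msln to Krt19 was 1.80, 1.56 and 1.83 in obese and 2.27, 3.39 and 3.20 in lean samples. The ratio of Upk1b to Upk3b was 0.226, 0.203 and 0.185 in obese and 0.153, 0.129 and 0.158 in lean samples, so that the 2 uroplakins also stood in unequal proportion. The mean log2 level of the 3 keratins minus that of the other 7 genes was -0.62, -1.08 and -0.56 in obese and -1.04, -1.71 and -1.35 in lean samples, where obese sample 2 fell within the lean range. The 4 smooth muscle genes summed to 5078, 4754 and 5623 normalized counts in obese and 5154, 2675 and 3350 in lean samples. Their log2 fold changes had a median of 0.47, and limma called 0 of them (1 at an unadjusted p under 0.05). They were thus lowest in lean samples 2 and 3, as the keratins were relative to the other genes, and their part in these ratios was not tested. These ratios were singled out after their values were seen.

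**Figure D4:**
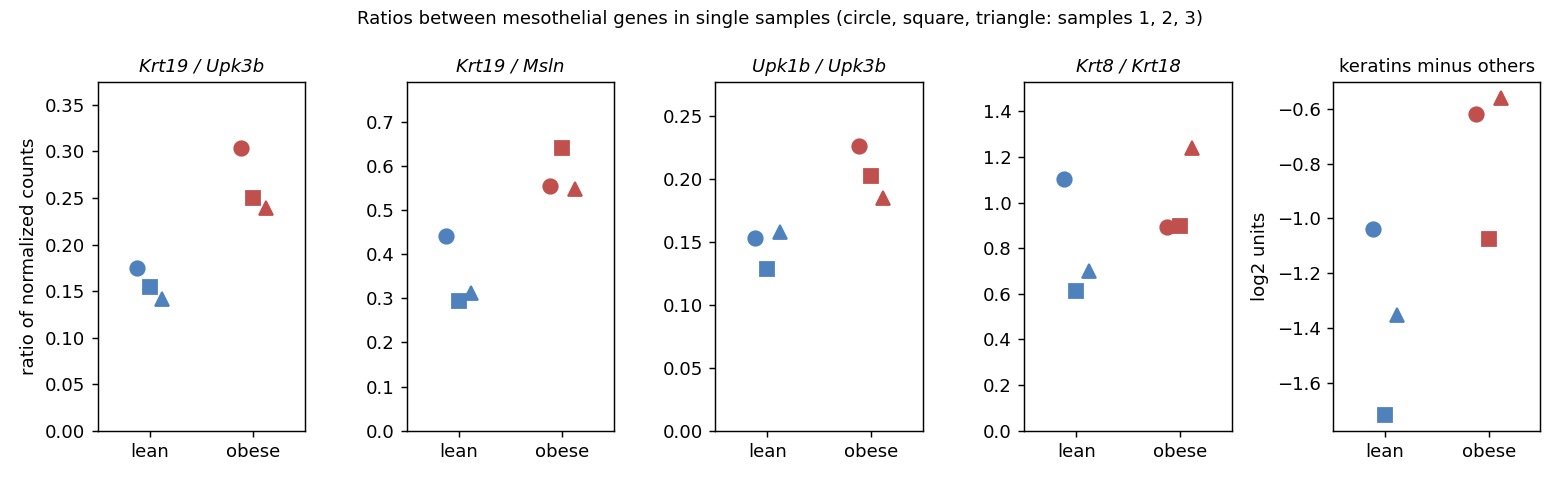
Ratios of normalized counts in single samples (y axis, from 0) for 4 pairs of genes, and at the right the mean log2 level of the 3 keratins minus that of the other 7 genes. The 3 obese samples lie above the 3 lean samples for Krt19 over Upk3b, Krt19 over Msln and Upk1b over Upk3b, and overlap with them in the 2 panels at the right.

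Of 17 further genes of mesothelium and epicardium, 15 had enough counts to be tested and 0 had an adjusted p under 0.05 in limma, with 1 at an unadjusted p under 0.05. In edgeR and DESeq2 0 of them passed adjustment, and 2 and 1 had an unadjusted p under 0.05. Their median log2 fold change was -0.02, with 7 of 15 above 0. Prg4, which encodes the surface lubricant lubricin, had 1413, 1335 and 773 normalized counts in obese and 637, 166 and 137 in lean samples. Every obese sample was above every lean one, and the log2 fold change was 2.21 (standard error 0.48, adjusted p = 0.0686 from limma). Across 15 alternative fits the log2 fold change of Prg4 stayed between 1.80 and 2.91 and its adjusted p between 0.00593 and 0.280.

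The other abundant genes of this list showed smaller differences. Ezr, which links actin to the membrane of microvilli, differed by -0.17 on the log2 scale (limma, adjusted p = 0.641). Efemp1, a matrix glycoprotein, had 630, 619 and 578 normalized counts in obese and 824, 737 and 661 in lean samples, and its difference of -0.28 on the log2 scale did not pass (limma, adjusted p = 0.413). Gpm6a, a membrane glycoprotein, differed by -0.39 on the log2 scale (limma, adjusted p = 0.448). Tbx18, an epicardial transcription factor chosen after its values were seen, had 170, 207 and 165 normalized counts in obese and 144, 142 and 153 in lean samples. Its groups did not overlap and its limma log2 fold change was 0.29, at an adjusted p of 0.544. Of the 15 wider genes tested, 2 did not overlap with obese higher, Prg4 and Tbx18. Efemp1 was the 1 that did not overlap with obese lower. Over all genes tested 18.0% did not overlap.

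Around Aldh1a2, 16 other genes of retinoic acid handling were listed, of which 12 were tested and 0 passed the adjusted threshold in limma, with 2 at an unadjusted p under 0.05. Their median log2 fold change was 0.10. Rdh10, which makes retinal from retinol and was chosen after its values were seen, had 220, 169 and 132 normalized counts in obese and 129, 115 and 113 in lean samples, a difference of 0.52 on the log2 scale (limma, adjusted p = 0.365). Dhrs3, which turns retinal back to retinol, differed by 0.23 on the log2 scale (limma, adjusted p = 0.479), and Rxra, a partner receptor, by 0.14 (adjusted p = 0.725). Rarb, a receptor gene that retinoic acid itself induces, was also chosen after its values were seen and differed by -0.14 on the log2 scale (limma, adjusted p = 0.780).

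Markers of other epithelia were low or at 0. Among 7 lung epithelial genes, Sftpb and Scgb1a1 had no read, and the summed level of the list was 8.04 to 15.3 normalized counts in obese and 7.65 to 11.2 in lean samples. Of 9 other epithelial genes, Krt5 and Cldn4 had no read in any sample and Epcam at most 3.36 normalized counts. Cldn3 and Cdh1, chosen after their values were seen, reached 17.0 in obese sample 3 and 13.0 in lean sample 2. The list summed to 31.6 to 38.6 normalized counts in obese and 32.5 to 38.3 in lean samples. Both ranges overlap between the diets.

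Adipocyte genes varied widely between samples. The 7 white adipocyte genes summed to 3887, 1295 and 1664 normalized counts in obese and 2809, 1264 and 588 in lean samples. Obese sample 1 thus had the highest adipocyte sum and the lowest sum of mesothelial genes, whereas lean sample 1 was the highest of the lean samples in both. The 4 brown adipocyte genes summed to 1283, 616 and 1276 normalized counts in obese and 330, 239 and 187 in lean samples, with 2 of 3 genes tested past the adjusted threshold. Fibroblast genes, 6 in number, spanned 40748 to 42501 normalized counts in obese and 40218 to 46012 in lean samples, with 0 called by limma. The part of adipose or ventricular tissue in the mesothelial values was not tested.

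**Figure D5:**
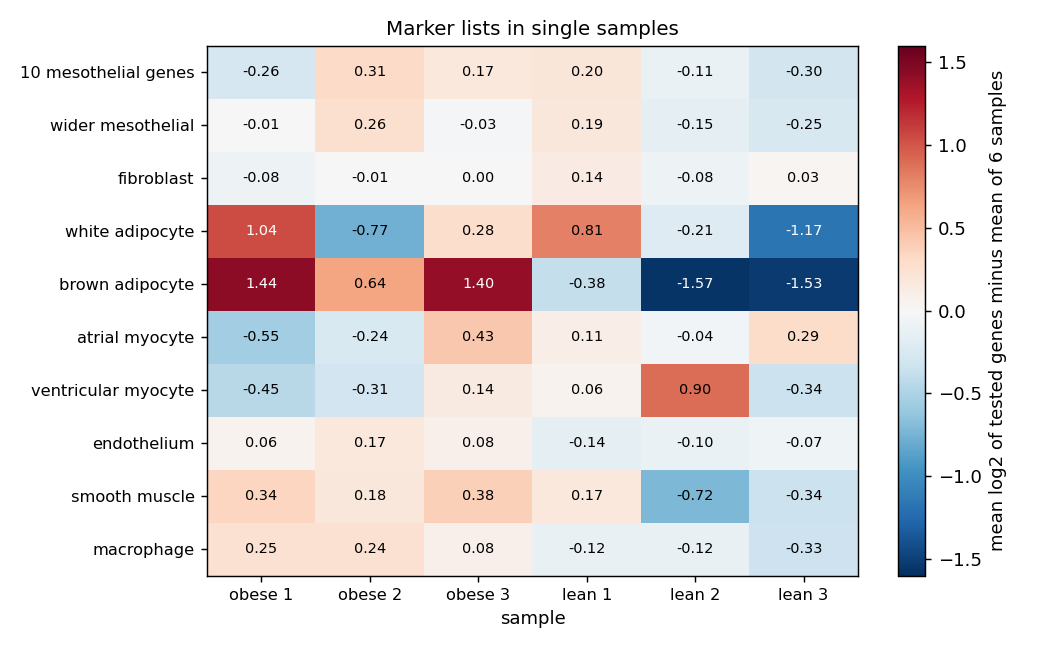
Mean log2(normalized count + 1) of the tested genes of each marker list (rows) in each sample (columns), minus the mean over the 6 samples; red is above and blue below that mean, in log2 units. The row of mesothelial genes runs from -0.30 to 0.31, while white adipocyte genes run from -1.17 in lean sample 3 to 1.04 in obese sample 1.

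The genes whose profile over the 6 samples was most like the mean of the 10 were looked for among 10824 other genes whose mean reached 100 normalized counts. Likeness was the root mean square difference of log2 values after centring each gene. Among the 6 closest were Disp1 (0.04), Gcn1l1 (0.07), Asb6 (0.08), Pdpn (0.08) and Card10 (0.09), in log2 units. The median over all genes compared was 0.30. Pdpn, which encodes podoplanin, a membrane protein of mesothelium and lymphatic vessels, is on the wider mesothelial list. It had 130, 181 and 175 normalized counts in obese and 161, 153 and 134 in lean samples, so that obese sample 1 was the lowest for it too. Each of the 10 was compared in the same way with the mean of the other 9. Upk1b was the closest at 0.15, and 101 other genes came closer than that to the mean of the 10. Krt19 (0.32), Bnc1 (0.35), Aldh1a2 (0.36) and Krt8 (0.56) lay farther away than the median gene. The means of Bnc1 and Krt8, 40.7 and 70.9 normalized counts, were below the minimum of 100 set for the genes compared. Counting error therefore weighs more in their distances.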

How the data were processed

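Atrial RNA of 3 obese and 3 lean samples was sequenced. The authors aligned the reads to GRCm38 with STAR, kept uniquely mapped reads, counted them per Ensembl gene with Salmon and scaled the counts by DESeq2 size factors; these deposited signal values are the normalized counts. The authors' log2 fold changes, p-values and scores of their own comparison are also deposited and were not used. Group came from the sample titles. The table writes symbols in capitals, so the 10 genes were matched ignoring case (0 matched with case) and checked by Ensembl identifier against GENCODE M21 names, which cover 42462 of 43432 genes. One row without a gene held 0 reads and was left out.

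Testing covered the genes whose mean reached 10 normalized counts, and was done with limma 3.58.1 (R 4.3.3) on log2(normalized count + 1), with a variance trend and no covariates, Benjamini-Hochberg adjustment and a threshold of 0.05. Such fold changes understate the change of low genes. Intervals are 95% and unadjusted. Reads were recovered by division by the smallest positive value of each sample (100% of positive values came out whole, within 0.001) and were tested with edgeR 4.0.16 and DESeq2 1.42.0 as alternatives. Depth was 15874251 to 28971508 reads, so 3 reads correspond to 2.05 to 3.41 normalized counts. Exon lengths are the union of GENCODE M21 exons. Use of strand in counting is not given in the sources used here. The members, lists and tests were chosen with earlier results of these data known. Named genes are the 10, of each list those past the threshold or among the 4 highest, and the 6 nearest profiles, with epithelial markers at or near 0 named as such; others are said to be chosen after seeing values. Values of 2 genes that these choices reached are not reported here. The fits were tested on simulated data.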

Additional observations from a re-analysis of the deposited data

How the results depend on the processing

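In each of 15 alternative fits 0 of the 10 mesothelial genes had an adjusted p under 0.05. Upk1b, Msln, Krt8, Krt18, Krt19 and Aldh1a2 kept their sign in all 15, while Upk3b, Bnc1, Wt1 and Lrrn4 kept it in 14, 14, 11 and 9. Krt19 had an unadjusted p under 0.05 in 6 of the 15. With each sample left out in turn the median log2 fold change of the 10 ran from -0.13 (without obese sample 2) to 0.28 (without obese sample 1). The number of genes called among all tested was 114 and depended on the fit: 0 without a variance trend (1717 at an unadjusted p under 0.05), 470 with DESeq2, and from 14 (without lean sample 2) to 318 (without obese sample 3) with 1 sample left out. Of the wider mesothelial genes 1, Prg4, passed with no filter on low values, and 0 to 1 passed with 1 sample left out, again Prg4 (without obese sample 3 or lean sample 1). With the replicate block 157 genes, 0 of the 10 and 1 of the wider genes, Prg4, were called. Whether the replicate numbers of the titles pair the samples cannot be settled with 3 samples per diet. The correlation of same-numbered samples' deviations from their group means was 0.12, -0.03 and 0.00 for numbers 1 to 3. For samples of unlike number it ran from -0.15 to 0.16. The intervals of the 10 genes limit what could be seen, their widths running from 0.84 to 1.71 on the log2 scale.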

Other observations

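All 9 listed genes of the change from epithelial to mesenchymal state, which epicardial cells undergo in development, were tested, and 0 had an adjusted p under 0.05 in limma (0 also at an unadjusted p under 0.05). Vim, the filament protein of mesenchymal and mesothelial cells, had 8597, 7759 and 9898 normalized counts in obese and 9779, 7909 and 7254 in lean samples, a log2 fold change of 0.08. Snai2, a repressor of epithelial genes chosen after its values were seen, had 48.2, 44.9 and 48.8 normalized counts in obese and 53.7, 69.1 and 78.7 in lean samples. Its groups did not overlap, and differed by -0.48 on the log2 scale (limma, adjusted p = 0.505). Snai2 was the only 1 of the 9 genes that did not overlap, beside 18.0% of all genes tested.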
